A study of Mus musculus with 2 samples.

Results

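The Kcnq1 imprinted domain of mouse chromosome 7 was described by its CTCF binding sites in the hindbrain of newborn mice. The domain was taken as 6 genes, Kcnq1, Kcnq1ot1, Cdkn1c, Phlda2, Slc22a18 and Ascl2, each with 50 kb beyond both ends. A peak belonged to it when its summit lay in these windows. This gave 32 of the 62686 peaks in the reproducible set used here, the authors' optimal set, which they derived with the irreproducible discovery rate (IDR), a filter that keeps peaks placed at similar ranks in separate lists. A further 78 weaker peaks of the 251251 in the list called on both libraries together had their summit in the windows and were not in the optimal set.

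CTCF ChIP-seq recovers DNA bound by CTCF, a zinc finger protein that halts growing chromatin loops and insulates genes from each other. The material was hindbrain of B6NCrl mice on postnatal day 0, several dissections pooled and ground together, with the sex of the pups not collected. There was 1 group of 2 libraries, both from the same tissue pool, so differences between them may be technical, and no second condition to compare. No mutation, transgene or treatment was named for these mice, and pooled whole hindbrain mixes all of its cell types. Peak lists carry no measure of gene expression, so the tissue label could not be checked against marker genes. The lists also do not separate the maternal from the paternal chromosome.

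In imprinted domains, genes are expressed from the copy inherited from 1 parent. Here the control region is a CpG-rich stretch inside Kcnq1, known as KvDMR1, which is methylated on the maternal copy. On the unmethylated paternal copy it starts Kcnq1ot1, a long noncoding RNA read antisense to Kcnq1, and this RNA silences neighbouring genes on the same chromosome. CTCF is known to favour unmethylated DNA at several imprinting control regions, KvDMR1 of the mouse among them. Among the protein-coding members, Kcnq1 encodes a voltage-gated potassium channel of heart and inner ear. Cdkn1c encodes an inhibitor of cyclin-dependent kinases that restrains growth, and Phlda2 a small protein that limits placental growth. Slc22a18 encodes a membrane transporter, and Ascl2 a transcription factor needed for the placenta.

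The sequences at the sites that set out the domain are shown first, because their letters and strand are what the later results refer to. Each summit was searched on either strand, up to 50 bp away, for the 14 bp core consensus of CTCF with at most 2 mismatches. The sites are the matches of 9 of the 10 strongest peaks of the domain, of the site inside Slc22a18 and of the outer Ascl2 promoter peak. Each line reads 5′ to 3′ along the strand of the match, with the match in capitals and 8 bases of mm10 to each side. They are listed from low to high coordinates.
Th intron, minus strand, match at chr7:142919450-142919463: acagttggCCACATGGGGGCACttgtgggg
Ascl2 promoter, minus strand, match at chr7:142969289-142969302: cgcctcctCCGCCAGGGGGAGGgacgtggg
Tspan32 exon, plus strand, match at chr7:143008213-143008226: aacatcggCCACCAGGGGGCACcaaggtca
Trpm5 intron, minus strand, match at chr7:143086513-143086526: ctttactgCCACCAGGGAGCAGaattgcct
Upstream of Trpm5, plus strand, match at chr7:143094909-143094922: aacattagCCACCAGAGGGCGCcaagatca
Kcnq1 intron, middle site, minus strand, match at chr7:143152490-143152503: aaaagtagCCACAAGATGGCAAgcaggccc
Upstream of Cdkn1c, near site, minus strand, match at chr7:143464078-143464091: caagtcggCCACCAGGGGGCAGcatgaagc
Upstream of Cdkn1c, far site, minus strand, match at chr7:143466496-143466509: gtctctgaCCACCAGGGGGCAGaatgactc
Upstream of Slc22a18, minus strand, match at chr7:143470158-143470171: gaccttggCCAGCAGGCGGCGCccaggtct
Slc22a18 intron, plus strand, match at chr7:143480700-143480713: agggagttCCACCAGGGGGCGCtacagtga
Upstream of Phlda2, minus strand, match at chr7:143506913-143506926: tatggaggCCAGAAGAGGGCATccaatccc

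The windows joined into 2 stretches of chromosome 7 (mm10, as all coordinates here). The first, around Ascl2, ran from 142916829 to 143019264 and held 5 optimal peaks. The second, from Kcnq1 to Phlda2, ran from 143056362 to 143553150 and held 27. Together they covered 0.599 Mb with 53.4 peaks per Mb (exact Poisson interval 36.5 to 75.4, at 95%, counting error only). Chromosome 7 as a whole had 28.6 peaks per Mb and the autosomes 24.9. The domain count depended on the margin, with 12 peaks at a margin of 0 kb and 40 at 100 kb. Density was not worked out at those margins, so the higher density is not shown for the genes without their margins. Of the 12 peaks inside gene bodies, 8 lay in Kcnq1, which is 320681 bp long. Peak signal was the value written by the authors' peak caller, on an unstated scale, with 1 value from the reads of both libraries together. It ran from 10.95 to 584.7 in the domain with a median of 130.3, against a median of 73.9 over all optimal peaks. This order depended on the margin, since the domain median was 63.2 with a margin of 0 kb and 69.6 with 100 kb. Signals over 100 were held by 17 of the 32 domain peaks, while 41.7% of all optimal peaks exceeded 100. A deposited width of exactly 320 bp was shared by 15 of the 32, against 62.9% of all optimal peaks, and all others but the Th intron peak were narrower.

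**Figure D1:**
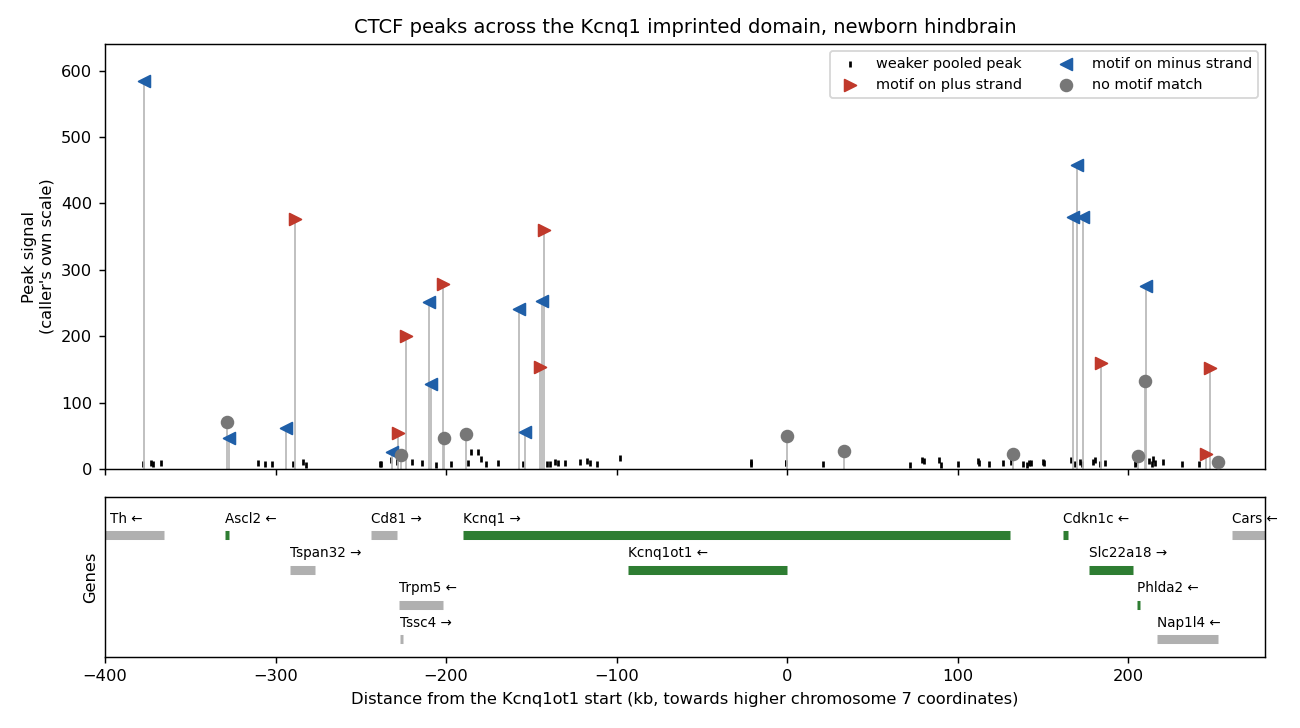
Signal of each optimal CTCF peak (upper panel, caller's own scale) against distance from the Kcnq1ot1 start in kb, with triangles pointing along the strand of the motif match, grey circles for peaks without a match and black ticks for the 78 weaker pooled peaks. The lower panel draws the member genes in green and their neighbours in grey, with an arrow for the strand. Strong sites stand to both sides of a stretch around the Kcnq1ot1 start in which no optimal peak exceeds 50.0015. Peaks between the 2 windows are not drawn.

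Kcnq1ot1, the noncoding RNA that silences the domain, had a single optimal peak at its start. Its only annotated transcript begins at 143296549 on the minus strand, in intron 11 of the longest Kcnq1 transcript, which has 16 exons. The peak ran from 143296374 to 143296693, with the summit 15 bp downstream of the start, in the first bases of the RNA. The signal was 50.0015, and 62.8% of optimal peaks were stronger. The site ranked 40514 in replicate 1 and 38552 in replicate 2 among the 300000 peaks of each library, so both libraries listed it at about the same moderate level. No motif match lay within 50 bp of this summit, where the best sequence had 4 mismatches. The nearest match with 2 mismatches in the 2 kb to each side lay 314 bp upstream of the start, outside the peak, at 143296863 to 143296876.

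A pair of weaker peaks lay further into the RNA, with summits 697 and 924 bp downstream of the start and signals of 9.73 and 9.56. Each overlapped a peak in replicate 1, the same one at rank 107211, and none in replicate 2. The rest of the Kcnq1ot1 gene, which is 93092 bp long, held no other optimal peak and 2 more weak ones.

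The 300 bases around the Kcnq1ot1 start, in which the summit of that peak falls, are shown because this is the control region's own promoter. The sequence is from RefSeq (GRCm38.p6, chr7:143296498-143296797, minus strand), runs from 250 bases before the start to 50 after it, and has the CCAAT box in capitals. CCAAT was searched on both strands and is the sequence read by the factor NF-Y, long described at this promoter.
Kcnq1ot1 promoter: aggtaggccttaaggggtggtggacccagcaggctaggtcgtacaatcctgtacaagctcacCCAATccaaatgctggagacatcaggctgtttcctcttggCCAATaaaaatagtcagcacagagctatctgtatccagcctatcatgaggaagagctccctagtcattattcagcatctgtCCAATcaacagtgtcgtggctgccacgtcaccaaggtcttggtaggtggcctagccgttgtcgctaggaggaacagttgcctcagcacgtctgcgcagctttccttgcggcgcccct
It holds 3 such boxes, starting 188, 148 and 67 bases before the start and all on the strand of the RNA. At least 1 box is present in 37.4% of the 32851 RefSeq promoter windows, and 3 or more in 3.37%. The best CTCF sequence in the window had 4 mismatches, while 14.4% of the promoter windows hold a match with at most 2. Promoter windows were found in the RefSeq table for 4 of the 6 members.

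Kcnq1, the potassium channel gene that hosts Kcnq1ot1, spans 320681 bp from 143106362 to 143427042 and had 8 optimal peaks in its body. At its starts it had 1 optimal peak, at 143108221 to 143108540, whose summit lay 30 bp past an inner start and 2019 bp past the outermost one. Its signal was 52.5, with ranks of 39028 and 37236 in replicates 1 and 2. No motif match lay near that summit, as at the Kcnq1ot1 start. The stronger sites of Kcnq1 lay in its first introns. A group of 3 peaks in intron 2 stood within 3 kb of each other. The left one, at 143151308 to 143151423, had a signal of 154.7 and ranked 18153 and 20386 in replicates 1 and 2. The middle one, at 143152380 to 143152613, had a signal of 253.0 and ranks of 9857 and 11646. The right one, at 143153881 to 143154151, had the highest signal inside any member gene, 359.7, with ranks of 4266 and 4569. All 3 carried a motif match, and the strand alternated between plus, minus and plus.

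In intron 1 of Kcnq1, a peak at 143138881 to 143139097 had a signal of 241.6 and ranks of 12511 and 10601. Its neighbour at 143142365 to 143142684 was weaker, at 55.6, and ranked 33419 and 48488. Both matches were on the minus strand. Beyond intron 2 the gene was almost bare. From the right peak of the intron 2 group to the Kcnq1ot1 start, 142.5 kb held no optimal peak and 14 weaker ones, the strongest with a signal of 17.4. Of all distances between neighbouring optimal peaks in the genome, 5.30% were as long. The next peak lay in intron 11 at 143329494 to 143329813, with a signal of 27.3 and no match. It was followed by 99.4 kb without an optimal peak, a length reached by 8.56% of all such distances. Both distances were picked as the longest of the region, so these shares do not measure how unusual they are.

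Cdkn1c, the kinase inhibitor gene, and Slc22a18, the transporter gene, had no peak at their starts, and also none of the pooled list's weaker peaks within 1 kb of them. The strongest cluster of the domain lay instead in the intergenic sequence between these genes, which are transcribed away from each other. The near site upstream of Cdkn1c, at 143463960 to 143464217, lay 3030 bp from its start. Its signal was 379.6 and it ranked 2983 and 3525 in replicates 1 and 2. The far site, at 143466344 to 143466656, lay 5455 bp from the start with a signal of 458.5 and ranks of 642 and 1182, and only 1.29% of optimal peaks were stronger. The site upstream of Slc22a18, at 143470020 to 143470299, lay 3565 bp from that gene's start. Its signal was 379.9, and its ranks were 3108 and 3231.

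These sites ranked 2, 3 and 4 by signal in the domain. All 3 matches were on the minus strand, so these sites point towards Kcnq1 and Kcnq1ot1. Both sites upstream of Cdkn1c carried the same 14 bases without a mismatch, printed above in different surroundings. The same 14 bases were the best match of 237 optimal peaks in the genome. Inside Slc22a18, an intron held a peak at 143480638 to 143480797. This one had a perfect match on the plus strand, reached a signal of 160.2 and ranked 17272 and 21408.

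Phlda2, the placental growth gene, had 1 promoter peak, at 143502016 to 143502335 in its coding sequence. It was the second weakest optimal peak of the domain, with a signal of 19.4. It ranked 64587 in replicate 1 and overlapped no peak in replicate 2, and it was not in the authors' conservative set. Both stronger sites near Phlda2 lay upstream of it. The nearer, 2911 bp from the start at 143505978 to 143506111, had a signal of 132.5, ranks of 20728 and 22783 and no match. The other, 3771 bp from the start at 143506796 to 143507024, had a signal of 275.6 and ranks of 8451 and 10021. The summits of both sites were on bases that the RefSeq genome marks as repeat. This mark was borne by 3 of the 32 domain summits and 18.4% of all optimal summits. The 14 bases matched at the farther site were the best match of 2212 optimal peaks, 92.9% of which also had their summit on such a base. Repeats of the B2 family are known to have spread CTCF motifs in rodents. The repeat family at either site was not analysed here.

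Ascl2, the placental transcription factor gene, had a pair of promoter peaks. The one at 142968117 to 142968436, in the coding sequence, had a signal of 70.9 and ranks of 36961 and 26186 in replicates 1 and 2. The one at 142969093 to 142969412 had its summit 11 bp past the outermost start, in the untranslated first exon. Its signal was 47.1 and its ranks were 38867 and 44336. A match on the minus strand lay 42.5 bp from that summit, in the sequence just upstream of the gene. The coding-sequence peak ranked ahead of the outer one in both libraries.

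Among the members, 4 of 6 had an optimal summit within 1 kb of an annotated start, namely Kcnq1, Kcnq1ot1, Phlda2 and Ascl2. Of the 5 protein-coding members 3 did, and 39.8% of all 21938 protein-coding genes did. Kcnq1ot1 is annotated as antisense, a class of 2959 genes in which 22.1% had such a peak. With so few genes these shares are given as a description only. All 5 promoter peaks of the members were of modest signal, from 19.4 to 70.9, with a median of 50.0015. The median over all optimal promoter peaks was 61.7. In the whole pooled list, where 69% of protein-coding and 52.8% of antisense genes had a summit at a start, the same 4 members did and no other. In the conservative set Kcnq1, Kcnq1ot1 and Ascl2 had a promoter peak and Phlda2 did not, where 38.5% of protein-coding genes had one. Among the strongest 31343 optimal peaks no member did, where 20.2% of protein-coding genes still had one.

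Other genes in and around the domain, listed with earlier results of these data known, had promoter peaks at a rate near the background. Of 14 such genes 6 had one, namely Dhcr7, Osbpl5, Nap1l4, Tssc4, Cd81 and Trpm5. Those without were Nadsyn1, Cars, Tnfrsf22, Tnfrsf23, Tnfrsf26, Tspan32, Th and Ins2. Dhcr7, which encodes the last enzyme of cholesterol synthesis, had the strongest, with a signal of 374.3. Trpm5, a taste-cell ion channel gene next to Kcnq1, had 5 peaks within 1 kb of its several starts, the strongest at 278.5.

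The strongest peak of the domain lay outside the member genes, in an intron of Th, the gene of the rate-limiting enzyme of catecholamine synthesis. In the annotation used, Th spans 38377 bp, and the nearest of its starts was 11697 bp from the summit. The peak ran from 142919255 to 142919597, 47406 bp from Ascl2, and had a signal of 584.7. It ranked 77 in replicate 1 and 22 in replicate 2, and 37 among all optimal peaks. The match in it had 2 mismatches and lay 33.5 bp from the summit. The next strong site on the Ascl2 side, at 143008085 to 143008342, lay in an exon of Tspan32, a tetraspanin gene, and 184 bp upstream of the antisense gene Tspan32os. Its signal was 376.4 and its ranks were 3359 and 3217, with a perfect match on the plus strand. Between these sites lay Ascl2 itself and a weaker peak at 143002706 to 143003025, whose match was perfect and whose signal was 62.7.

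Close to the left end of Kcnq1, the strongest site was the one just upstream of Trpm5, at 143094812 to 143095028, 11439 bp from Kcnq1. Its signal was 278.5, its ranks were 8995 and 10087, and its plus-strand match was perfect. Inside Trpm5, a peak at 143086420 to 143086627 had a signal of 251.6 and ranks of 10650 and 11368, with 1 mismatch on the minus strand.

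The limit of 50 kb set which of the outer peaks counted. The Th peak was 2594 bp inside the limit, while another peak in Th, with a signal of 45.0, lay 376 bp outside it. Between the windows, peaks at R74862 and Cd81 with signals of 55.2 and 32.05 lay 11366 and 3261 bp short of the window that begins left of Kcnq1. At the right end, the peak at a start of Nap1l4, a histone chaperone gene, was the weakest of the domain at 10.95 and lay 3927 bp inside.

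Motif matches were present in the domain at a share close to that of all optimal peaks. A match with at most 2 mismatches was present at 22 of 32 summits (68.8%, Wilson interval 51.4 to 82.0), where 65.4% of all optimal peaks had one. Perfect matches were present at 7 of 32 (21.9%, Wilson interval 11.02 to 38.8), against 8.7% of all optimal peaks. In windows 1 kb to the left and right of the domain summits, 3 (9.4%) and 2 (6.25%) had a match. These windows of all optimal peaks had one in 2.85% and 2.98%. Some of the domain windows held the match of a neighbouring domain peak, as at the peaks in Trpm5 that lie 994 bp apart. The matches lay at a median of 6 bp from the summit. All 10 of the strongest domain peaks carried one. Among the 17 peaks with a signal over 100 there were 16 with a match, and 6 among the 15 weaker ones. Over all optimal peaks the shares were 82.9% and 52.9%. The median signal in the domain was 221.1 with a match and 37.5 without, against 110.4 and 43.8 over all optimal peaks.

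**Figure D2:**
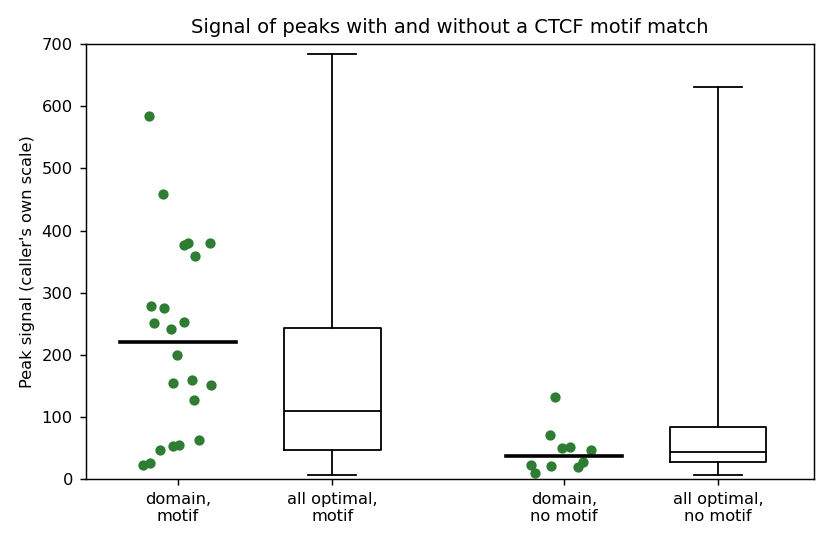
Signal of the domain peaks with a CTCF motif match (22 points) and without one (10 points), with a thick line at the median, beside boxes for all optimal peaks of the same kind (box from the lower to the upper quartile, line at the median, whiskers to the lowest and highest value). The domain medians are 221.1 with a match and 37.5 without. The only peak without a match over 100 is the one at 132.5 upstream of Phlda2.

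The share with a motif match and the median signal were lower for peaks at annotated starts than for peaks elsewhere, in the domain and over all optimal peaks alike in direction, and these differences were not tested. Of the domain peaks 17 of 32 lay within 1 kb of a start, against 21% of all optimal peaks, and 5 of these 17 were at starts of Trpm5. A match was present at 9 of the 17 promoter peaks and at 13 of the other 15. Over all optimal peaks these shares were 46.4% and 70.5%. The median signal was 50.0015 at promoters and 241.6 elsewhere in the domain, and 61.7 and 78.2 over all optimal peaks.

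CpG content separated most of the start-site peaks of the members from the strong sites. The CpG ratio (observed over expected, in 301 bp around the summit) exceeded 0.6 at 6 of 32 domain peaks, and at 11.6% of all optimal peaks. These 6 were both Ascl2 peaks (1.17 and 0.674), the peaks at the starts of Phlda2 (0.936), Kcnq1ot1 (0.691) and Nap1l4 (1.05), and the nearer peak upstream of Phlda2 (0.672). The last of these was the strongest of the 6, with a signal of 132.5, and had its summit on a base marked as repeat. Only the outer Ascl2 peak among the 6 had a motif match, and 39.8% of all optimal peaks over this ratio had one. The promoter peak of Kcnq1 had a low ratio, 0.160. The 3 sites between Cdkn1c and Slc22a18 had ratios of 0.363, 0.244 and 0.305. A CpG inside the 14 matched bases, where methylation is known to hinder CTCF at some sites, was present in 6 of 22 matches and in 32.5% of all matches. These included the site upstream of Slc22a18 and the one inside that gene. DNA methylation was not measured here.

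**Figure D3:**
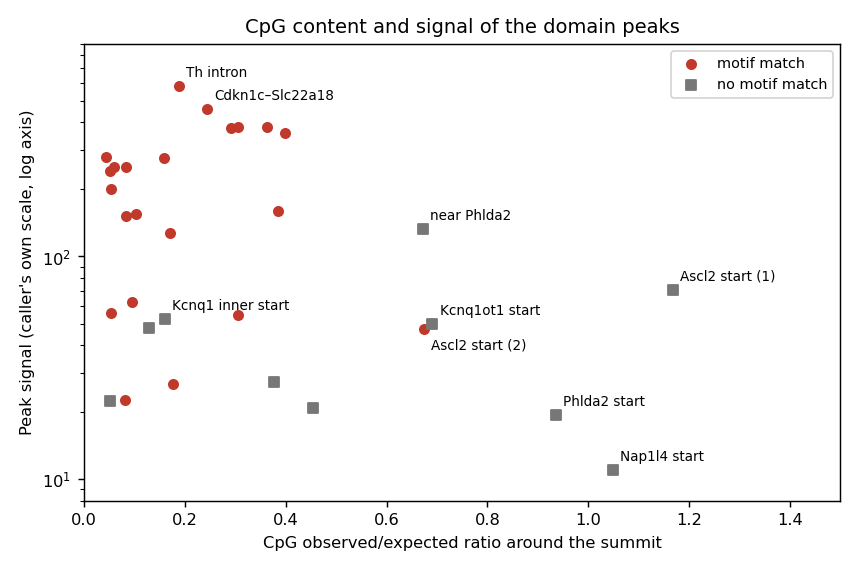
Signal of each domain peak (log axis, caller's own scale) against the CpG observed/expected ratio in 301 bp around its summit, with red circles for peaks with a CTCF motif match and grey squares for those without. The peaks at the starts of Kcnq1ot1, Phlda2 and Ascl2 lie at ratios over 0.6 and signals of 19.4 to 70.9. The strongest peak over that ratio is the nearer one upstream of Phlda2, at 132.5.

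The strand of the match gives the direction in which CTCF sits, and sites at the feet of a chromatin loop usually point towards each other. Of the 22 matches in the domain 13 were on the minus strand and 9 on the plus strand. Among 20 pairs of neighbouring matches within a window, 5 pointed towards each other, 7 apart and 8 the same way. Over all 40266 pairs in the genome the shares were 23.7%, 23.7% and 52.6%. The widest pair in the domain pointed towards each other. It ran for 310.1 kb from the right site in Kcnq1 intron 2, on the plus strand, to the near site upstream of Cdkn1c, on the minus strand, with signals of 359.7 and 379.6. Of all neighbouring pairs in the genome 3.31% were as far apart. This pair was picked as the widest of the 20, so that share does not measure how unusual it is. The Kcnq1ot1 gene and its start lay between the sites of the pair. The 3 optimal peaks in that stretch carried no match and had signals of 22.4 to 50.0015, and of its 34 weaker peaks 2 had a match. The best sequences at the optimal summits 143329654 and 143429087 had 3 mismatches. With 3 mismatches allowed, the sites of this widest pair would therefore no longer be neighbours. Contacts between sites were not measured here.

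The 2 libraries ranked the domain's sites much alike. Of the 32 peaks 30 overlapped a peak in both libraries, against 99.5% of all optimal peaks, and 26 did so within the strongest 62686 of each, against 83.3%. Those absent from replicate 2 were the promoter peak of Phlda2 and the weaker of the Nap1l4 promoter peaks, with a signal of 10.95. Spearman's rho between the ranks was 0.959 over the 30 peaks listed in both, and 0.944 over all optimal peaks. It is a correlation across sites that share both libraries. IDR keeps peaks of similar rank in the lists it compares, and which lists were compared for the optimal set was not established here. The likeness may be partly built into the set and is not taken as separate evidence of reproducibility. On a log2 scale the largest shift in rank was at the Th peak (77 and 22), a change of 1.81 that spans few places. Counted in places, shifts were larger among weak peaks, as at the Cd81 peak with a signal of 26.7, ranked 85539 and 53045. Of the 10 strongest peaks, 8 ranked between 2983 and 11646 in both libraries. The conservative set held 29 of the 32 at the same position, and 86.5% of all optimal peaks.

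**Figure D4:**
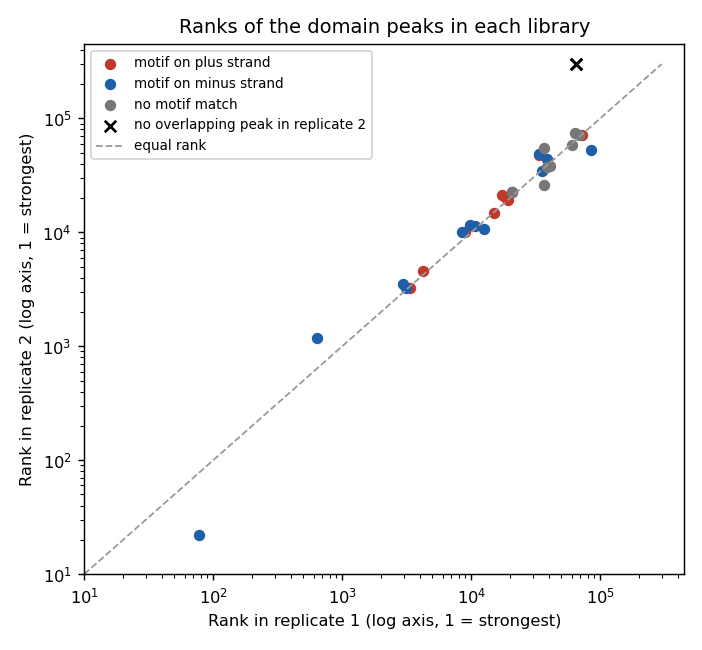
Rank of each domain peak in replicate 2 against its rank in replicate 1 (both log axes, 1 is the strongest of 300000), coloured by the strand of the motif match, with a dashed line for equal ranks. Points follow the line from ranks of 77 and 22 to ranks of 72546 and 71633 and beyond. The crosses at the top, which nearly coincide, are the 2 peaks with no overlapping peak in replicate 2.

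The weaker pooled peaks of the domain were near the floor of the list. Their signals ran from 7.03 to 26.8 with a median of 9.10, against 9.27 for all pooled peaks outside the optimal set. Of the domain's 110 pooled peaks 29.1% were in the optimal set, against 24.9% of the whole list. A motif match was present at 9 of the 78 (11.5%), against 15.8% of such peaks in the genome. Both libraries listed 26 of the 78 (33.3%), against 39% of all pooled peaks outside the optimal set. Inside Kcnq1, which is 320681 bp long, there were 32.

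The strongest of them lay in Kcnq1 intron sequence at 143114833 to 143115152. It reached a signal of 26.8, stood at ranks 74361 and 50076, and held a match with 2 mismatches. The next, at 143110835 to 143111154, also in a Kcnq1 intron, had a signal of 25.4, ranks of 63168 and 59717 and a match with 1 mismatch, and was in the conservative set. Then followed peaks inside Tssc4 (21.1), at its start (17.5) and in the long bare stretch of Kcnq1 (17.4). The strongest exceeded the signal of 6 optimal peaks of the domain and the next that of 5, so the step from weaker to optimal peaks was not a clean limit in signal.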

How the data were processed

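CTCF ChIP-seq of newborn mouse hindbrain was available as lists of peaks on mm10. Per the deposited file descriptions, the peaks of a library came from its alignments set against a control alignment, and the pooled list from both libraries. The authors derived the conservative and optimal IDR sets from these lists. For the aligner, peak caller, IDR threshold and antibody lot, details were not given in the sources used here. Peak signal, a deposited score whose scale is the caller's, was used only within lists that share it. The deposited IDR score ran up to 1000. The summit was the deposited start plus the offset in bp. Read depth is unknown, so intervals cover counting error over peaks only.

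Genes came from GENCODE vM21 and sequence from the RefSeq genome GRCm38.p6. No peak reached past a chromosome end of that genome. A promoter peak had its summit within 1 kb of any annotated start. In each library a site took the rank of the strongest peak overlapping it by at least 1 bp. The motif scan was tested on simulated sequence. Scripts used Python 3.11.15, numpy 2.4.6, pandas 2.3.3, scipy 1.17.1 and pysam 0.24.0.

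The members and gene lists were chosen with earlier results of these data known. Named were all members, the 10 strongest peaks, the strongest peak in or nearest to each member, every member promoter peak, and the strongest 5 weaker peaks. Other peaks that the text names, to fill a cluster or an edge, were chosen after their values were seen. Shares over all genes or peaks serve as background, and no test was run because 1 group of libraries allows none. Alternatives included the authors' conservative set, the stronger optimal peaks, each library alone, other margins, promoter widths, start sites, mismatches, motif windows and overlap rules. The matched sequence of 1 of the strongest peaks is not reported here.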

Additional observations from a re-analysis of the deposited data

How the results depend on the processing

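No paired analysis was possible because the libraries form 1 group and no result comes from a test. Of 37 alternative values, 30 stayed within 1.5 times a count or inside the interval of a share or median, 7 moved and none reversed. The count of 32 optimal peaks fell to 17 among the strongest 31343 optimal peaks, and to 12 and 18 with margins of 0 and 10 kb, where fewer positions qualify. Each library alone gave 26 to 30. The 4 members with a promoter peak became 0 among the strongest optimal peaks, and each library alone gave 3, without Phlda2. Of all protein-coding genes, 40.8% had one in replicate 1 alone and 40.4% in replicate 2 alone. With 5′ ends only, 3 members had one, without Kcnq1, and 31.8% of protein-coding genes did. The motif share of 68.8% became 37.5% when 1 mismatch was allowed and 84.4% when 3 were, beside 34.7% and 86.3% of all optimal peaks. It was 76.7% to 76.9% in each library alone, where the share over all peaks was not worked out. The share of peaks found in both libraries rose from 81.2% to 93.8% with the whole lists of 300000. The median signal of 130.3 fell to 63.2 with a margin of 0 kb and to 69.6 with 100 kb, both inside its interval of 50.0015 to 251.6. At both margins it lay below the median of 73.9 over all optimal peaks, while the main value lay above it. The count of reversed values does not register this change of order. With 1 tissue pool and unknown depth, no spread between animals can be given.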
